A study of Mus musculus with 14 samples.

Results

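The comparison described here is that of aortic valve leaflets from mice given angiotensin II (AngII) together with LY272015, which blocks the serotonin receptor HTR2B, with leaflets from untreated mice on the same diet. Its members were 8 of the 14 libraries of the series, 4 AngII+LY and 4 Ctrl, and all 19145 genes of the 56941 listed whose count averaged 10 or more across the 14 libraries. All mice were wild type males of the strain C57BL/6J (C57BL/6 in the sample labels), 8 weeks old at the start, and every group, Ctrl included, ate Breslow Western Diet, a cholesterol-rich feed. AngII+LY mice received AngII at 1000 ng/kg/min from osmotic pumps for 28 days and LY272015 at 3 mg/kg by injection, given every other day in one description and more sparsely in the other. Their pumps were taken out 48 hours before the leaflets were collected, so the valves were read after AngII had been withdrawn, although the sources differ on whether this was done in every mouse. Ctrl mice were labelled as untreated and are not described as carrying a pump. The labels of AngII+LY 2, AngII+LY 3 and AngII+LY 4 carry compound numbers that run on from LY272015, and the group was taken from the sample titles. The 4 AngII mice are given only beside values they bear on, and the 2 LY mice beside only a few of these.

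Aortic leaflets are thin sheets of matrix held by valve interstitial cells, which are fibroblast-like, and covered by valvular endothelium. AngII, acting through its type 1 receptor, raises blood pressure and drives fibroblasts towards matrix production, and HTR2B, a receptor that couples to Gq, is known for its part in valve fibrosis caused by serotonergic drugs. Blocking HTR2B during AngII infusion leaves AngII itself in place, although the authors report that LY272015 kept blood pressure from rising under it. The comparison with untreated valves therefore asks what remained different when both agents had been given.

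No gene of the 19145 tested passed edgeR's quasi-likelihood test (Benjamini-Hochberg adjusted p under 0.05 and a log2 fold change beyond 0.5 in either direction; 0% called), and the smallest adjusted p was 0.0575. At an unadjusted p under 0.05, 1227 genes (6.41%) were higher in AngII+LY and 1414 (7.39%) were lower. DESeq2's Wald test on the same counts and cut-off called 343 genes, of which 161 (0.841%) were higher and 182 (0.951%) were lower. In 626 genes (3.27%) all 4 AngII+LY values lay above all 4 Ctrl values, and in 936 (4.89%) all lay below. The levels given for this comparison are therefore differences that the main test did not call. DESeq2 gave an adjusted p under 0.05 for each of the 28 leading genes described below. Those genes were picked by their edgeR p in the same counts, so this is not separate evidence. The leading higher genes encoded prostaglandin D synthase, B-type natriuretic peptide, a retinoid-binding protein, metallothionein and mitochondrially encoded subunits. The leading lower genes encoded uncoupling protein 1, a small proteoglycan, other secreted proteins and a member of the Dickkopf family.

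Read totals of the 8 libraries lay between 41610931 and 69355531 counts, and the smallest library of the series was AngII 4 with 20990655. Genes with any count numbered 20394 to 22457 in AngII+LY and 22996 to 24234 in Ctrl, with no overlap. Log2 normalized counts of replicates correlated at 0.878 to 0.890 in AngII+LY and at 0.923 to 0.947 in Ctrl. How far these differences between the groups bear on the levels of single genes was not tested. The libraries are replicates by their titles, and p-values measure the spread between these mice. Mitochondrially encoded genes took 5.57% ± 1.46 of counts in Ctrl (SD, n = 4), 13.7% ± 4.45 in AngII+LY (n = 4) and 17.8% ± 8.48 in AngII (n = 4). The 2 LY libraries, from mice without AngII, held 8.619% and 9.765%, above every Ctrl library. The 4 AngII+LY libraries held 20.2%, 10.1%, 11.8% and 12.7%, and the 4 Ctrl libraries held 4.00%, 5.28%, 5.49% and 7.52%, with no overlap. The difference of 8.13 percentage points had an exact two-sided permutation p of 0.0286, the smallest that 4 against 4 allows. With Ctrl 1, Ctrl 2 or Ctrl 3 left out that p was 0.0571, and with any other library left out it was 0.0286. Counts of Pecam1, an endothelial adhesion molecule, and of Vim, an intermediate filament of interstitial cells, were at least 23696 and 74969 in each of the 8 libraries, but heart muscle and vessels express both genes too, so they do not set leaflets apart. The 14 valve interstitial cell markers took 1.16 to 2.34% of counts in Ctrl, 0.601 to 1.05% in AngII+LY and 1.34 to 2.10% in AngII, so AngII+LY lay below both. The 25 cardiomyocyte markers took 1.57 to 5.92% in Ctrl, 3.42 to 8.09% in AngII+LY and 1.5 to 2.96% in AngII, which shows that heart muscle RNA was present in all libraries. In bulk leaflets, fewer cells of a type and less RNA per cell cannot be told apart.

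**Figure D1:**
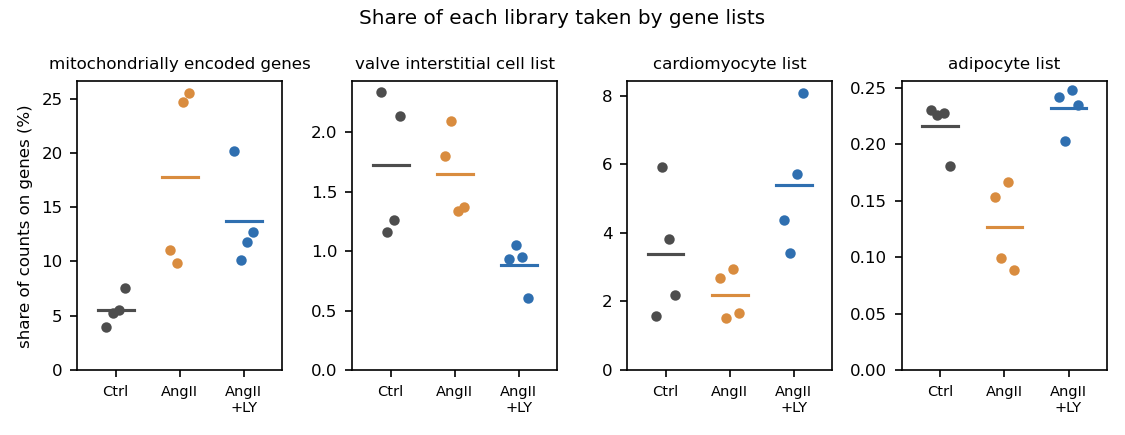
Share of counts on genes (%) taken by the mitochondrially encoded genes and by the valve interstitial cell, cardiomyocyte and adipocyte lists, with a point for each library and a line at the group mean. The AngII+LY libraries lie above Ctrl for mitochondrially encoded genes (10.1 to 20.2% against 4.00 to 7.52%) and below Ctrl for the valve interstitial cell list (0.601 to 1.05% against 1.16 to 2.34%), while the adipocyte list overlaps.

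The promoters of 3 of the leading genes are shown because these genes stand for the groups described next: a natriuretic peptide and a metallothionein that were higher, and the uncoupling protein that was lower. Each run is the RefSeq window on GRCm38.p6 from 250 bases before to 50 after the annotated start, read 5′ to 3′ on the gene's own strand. Capitals mark 3 motifs, searched on both strands. The first is the TATA box, spelled TATAAA. The second is a site that GATA factors are known to recognise, spelled AGATAA. The third is the core of the metal response element, spelled either as TGCACNC or, with the other purine allowed at its centre, as TGCGCNC.
Nppb, chr4:147985650-147985949 (plus strand): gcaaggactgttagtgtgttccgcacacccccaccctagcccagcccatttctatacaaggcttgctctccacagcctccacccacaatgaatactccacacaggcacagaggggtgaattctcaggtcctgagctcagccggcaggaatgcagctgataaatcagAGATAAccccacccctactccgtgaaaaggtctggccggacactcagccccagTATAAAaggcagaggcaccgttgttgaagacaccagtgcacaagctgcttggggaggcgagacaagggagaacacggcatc
Mt1, chr8:94178839-94179138 (plus strand): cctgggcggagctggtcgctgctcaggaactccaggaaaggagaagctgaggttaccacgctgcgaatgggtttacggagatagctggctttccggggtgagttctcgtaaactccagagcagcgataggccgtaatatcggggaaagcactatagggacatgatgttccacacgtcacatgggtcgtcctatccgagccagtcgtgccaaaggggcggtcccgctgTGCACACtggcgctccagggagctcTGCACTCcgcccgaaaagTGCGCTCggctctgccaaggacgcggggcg
Ucp1, chr8:83290098-83290397 (plus strand): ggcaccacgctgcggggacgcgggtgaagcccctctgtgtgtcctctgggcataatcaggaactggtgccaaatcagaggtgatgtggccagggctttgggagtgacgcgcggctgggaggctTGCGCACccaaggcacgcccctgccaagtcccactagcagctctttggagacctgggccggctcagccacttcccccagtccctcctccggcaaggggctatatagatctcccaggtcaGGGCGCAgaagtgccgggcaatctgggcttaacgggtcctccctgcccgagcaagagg
The Nppb window held TATAAA and AGATAA 1 time each, the Mt1 window held 3 metal response cores, and the Ucp1 window held 2. Over all 32851 promoters of the table, 13.6% held TATAAA, 11.2% held AGATAA, 25.7% held a metal response core and 1.97% held 3 or more. These matches describe the letters of the windows and say nothing of which factor was bound.

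Among the genes higher in AngII+LY, Ptgds, which encodes lipocalin-type prostaglandin D synthase, had the smallest p. Its normalized counts were 5017, 5477, 10980 and 6786 in Ctrl 1 to 4, and 25872, 16981, 27349 and 35045 in AngII+LY 1 to 4. All AngII+LY values lay above the highest Ctrl value, and the log2 fold change was 1.90 (SE 0.29, edgeR adjusted p 0.0575). AngII mice held 9762, 8145, 13817 and 6777, within or just above the range of Ctrl. Nppb, B-type natriuretic peptide, a hormone that heart muscle releases under load, was read at 868, 2526, 1771 and 1392 in Ctrl and at 10253, 4686, 8008 and 30088 in AngII+LY. Its log2 fold change was 3.02 (SE 0.50, adjusted p 0.0665), and AngII mice again stayed low at 3167, 1763, 3332 and 1717. With the summed share of counts on cardiomyocyte markers as a covariate, an alternative chosen after the data were seen, the log2 fold change of Nppb was 1.99.

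Rbp7, a retinoid-binding protein of endothelium and fat, was read at 620, 1250, 998 and 785 in Ctrl and at 3268, 2185, 2043 and 2525 in AngII+LY, a log2 fold change of 1.46 (SE 0.25, adjusted p 0.0699). Mt1, metallothionein 1, a small protein that binds zinc and copper, was read at 12041, 14304, 13994 and 9789 in Ctrl and at 30939, 18194, 27133 and 30567 in AngII+LY. The log2 fold change of Mt1 was 1.09 (SE 0.23, adjusted p 0.113). In AngII mice both genes sat at the Ctrl level, with log2 differences from Ctrl of -0.01 for Rbp7 and 0.05 for Mt1. Xirp2, an actin-binding protein of striated muscle that responds to AngII in the heart, was read at 1380, 3581, 2454 and 2071 in Ctrl and at 14270, 5163, 6227 and 17256 in AngII+LY. The AngII values of Xirp2, 5950, 4134, 12936 and 12799, overlapped those of AngII+LY and lay above all Ctrl values.

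The other higher genes named were St8sia4 (a polysialyltransferase), Shisa8, Slc26a10, Upp1 (uridine phosphorylase), mt-Nd3, Lars2 (mitochondrial leucyl-tRNA synthetase), Rn18s-rs5, Mir6236 and Rn7s1, with log2 fold changes from 1.03 to 3.45. Rn18s-rs5, annotated as a ribosomal RNA, and Rn7s1, a copy of the RNA of the signal recognition particle, have near-identical copies elsewhere in the genome. How reads that map to several places were counted is not given in the sources used here, so the values of these copies are uncertain. Lars2 averaged 130163 in Ctrl and 435233 in AngII+LY. Whether reads counted for Lars2 or Mir6236 came from other places in the genome was not tested. Shisa8 was carried by 2 libraries, at 269, 2370, 1070 and 189 in AngII+LY against 59.0, 175, 80.0 and 43.1 in Ctrl. Slc26a10 was at 10033 in AngII+LY 2 and between 2249 and 3478 in the other AngII+LY libraries, against 626 to 1356 in Ctrl.

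Among the lower genes, Ucp1, the uncoupling protein that releases heat in brown fat, was lower in each AngII+LY library than in any Ctrl library. It lies at chr8:84016647-84025085 on GRCm39. It was read at 5010, 2417, 5206 and 2743 in Ctrl and at 787, 305, 354 and 482 in AngII+LY, a log2 fold change of -3.0 (SE 0.48, adjusted p 0.0575). AngII mice were as low, at 307, 530, 1037 and 205. Inmt, an amine N-methyltransferase, was likewise low in both infused groups, with 5513, 4827, 6965 and 3882 in Ctrl, 1385, 1265, 1461 and 2956 in AngII+LY, and 2329, 2147, 2195 and 1251 in AngII. Cib2, a calcium and integrin binding protein, had the smallest p of the 28 leading genes named (8.1e-06) and was at 831 to 1203 in Ctrl and 173 to 355 in AngII+LY. AngII held Cib2 at 291 to 373. Cib2 overlaps Sh2d7 on the opposite strand, and without a stated strand setting the reads of the pair cannot be told apart. The same holds for Shisa8 and Slc26a10, which overlap Srebf2 and B4galnt1, and for other named genes whose annotations overlap.

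The genes of secreted matrix among the lower ones had lower means in AngII+LY than in AngII. Fmod, fibromodulin, a small proteoglycan that binds collagen fibrils, was at 17680, 15133, 7674 and 17438 in Ctrl and at 3895, 3635, 5015 and 3805 in AngII+LY, a log2 fold change of -1.83 (SE 0.33, adjusted p 0.0769). In AngII, Fmod was at 13587, 11228, 5459 and 5354, between the other 2 groups. Dkk3, a secreted protein of the Dickkopf family, was at 88004, 64918, 39779 and 82176 in Ctrl and at 20847, 16882, 19024 and 20030 in AngII+LY, and its AngII+LY values spanned a narrower range than those of Ctrl. Ccdc80, a secreted matrix protein of fibroblasts and fat, was at 68294, 46519, 49876 and 80981 in Ctrl and at 23964, 21536, 19835 and 19862 in AngII+LY. Angptl7, a secreted angiopoietin-like protein, was at 6493, 6105, 3487 and 5577 in Ctrl and at 766, 859, 1346 and 2511 in AngII+LY. The LY libraries held Angptl7 at 10906 and 16462, above all Ctrl values. Angptl7 lies within Mtor on the opposite strand.

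Aldh1a1, a retinaldehyde dehydrogenase that makes retinoic acid, differed in direction between the infused groups. Its values were 21847, 14775, 13399 and 23454 in Ctrl, 10524, 6696, 7645 and 5368 in AngII+LY, and 23778, 27528, 30929 and 26656 in AngII. All AngII values lay above all Ctrl values and all AngII+LY values below them. The higher level in AngII was not called against Ctrl (log2 fold change 0.57, edgeR adjusted p 0.149). The LY libraries held Aldh1a1 at 20703 and 32174. Etnppl, an enzyme that breaks down phosphoethanolamine, was at 248, 144, 106 and 217 in Ctrl and at 8.24, 0, 8.64 and 0 in AngII+LY, while AngII held 230, 944, 175 and 52.9. Epha3, an ephrin receptor, was at 277 to 672 in Ctrl, 33.1 to 141 in AngII+LY and 256 to 761 in AngII. Bmerb1 was at 172 to 493 in Ctrl, 9.61 to 37.4 in AngII+LY and 126 to 427 in AngII. The other lower genes were Pex5l, Vstm4 and Trf (transferrin), with log2 fold changes of -3.93, -1.97 and -1.38.

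**Figure D2:**
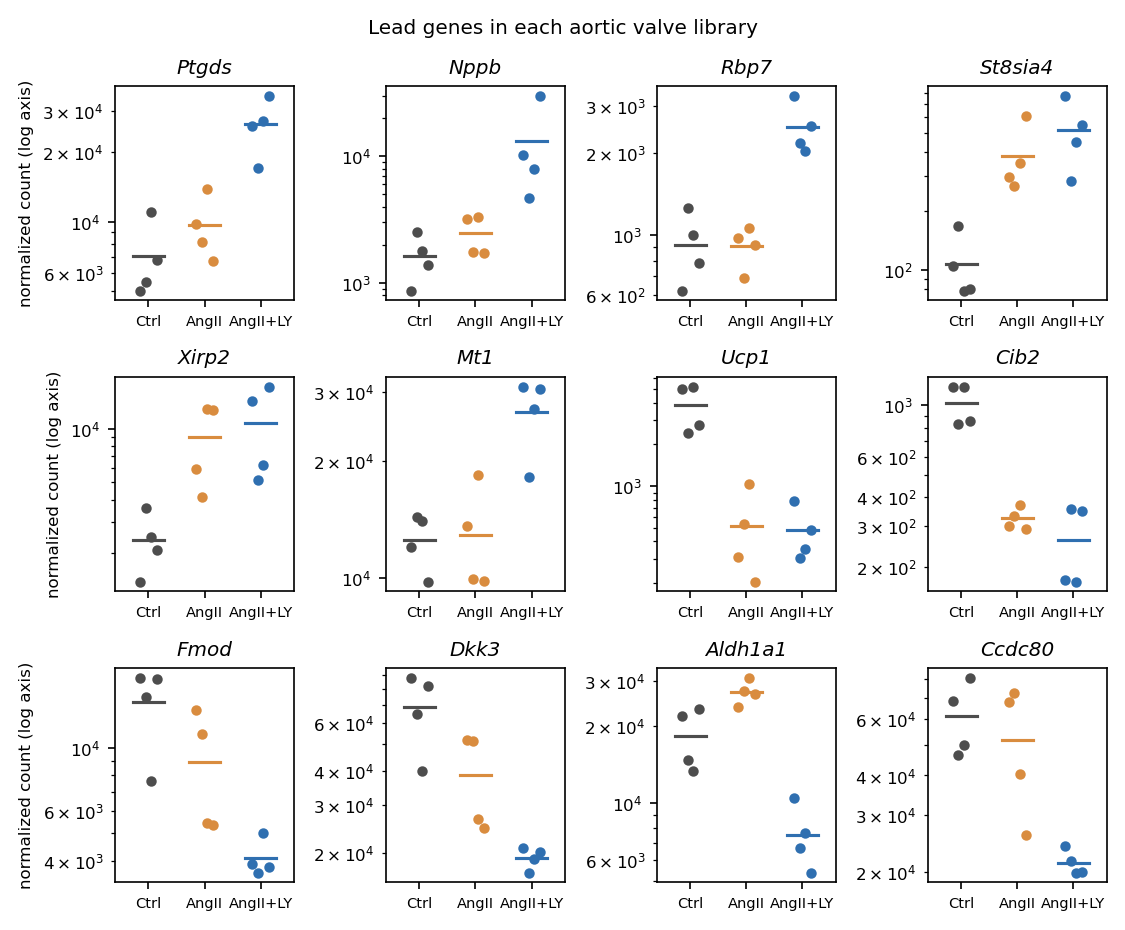
Normalized counts (log axis) of 6 genes that were higher and 6 that were lower in AngII+LY than in Ctrl, with a point for each library of Ctrl, AngII and AngII+LY and a line at the group mean. The axis of each panel has its own range and does not start at 0. Ucp1, Cib2 and Xirp2 sit at like levels in AngII and AngII+LY, Mt1 and Rbp7 sit at the Ctrl level in AngII, and Aldh1a1 is above Ctrl in AngII and below it in AngII+LY.

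The other contrasts of the same fit gave values for the 28 leading genes beside those of AngII+LY against Ctrl. AngII against Ctrl shares the 4 Ctrl libraries and AngII+LY against AngII shares the 4 AngII+LY libraries, and the 28 genes were chosen for their separation of AngII+LY from Ctrl, so these values are not independent of one another. In AngII against Ctrl, 8 of the 28 were called, where 2.45% of all genes tested were called higher and 0.454% lower. They were St8sia4, Xirp2, mt-Nd3 and Lars2, which rose, and Ucp1, Cib2, Inmt and Pex5l, which fell. In AngII+LY against AngII, 8 others of the 28 were called, where 0.413% of all genes were called higher and 0.507% lower. They were Ptgds, Nppb, Rbp7 and Mt1, higher in AngII+LY than in AngII, and Aldh1a1, Bmerb1, Epha3 and Etnppl, lower in AngII+LY than in AngII. The difference of AngII+LY from AngII was -0.16 log2 units for Ucp1 (SE 0.47, adjusted p 0.872), -0.30 for Cib2 (SE 0.30, adjusted p 0.574) and 0.27 for Xirp2 (SE 0.42, adjusted p 0.737). It was -1.85 for Aldh1a1 (SE 0.25, adjusted p 0.0260) and 1.47 for Rbp7 (SE 0.25, adjusted p 0.0447). The other 12 passed in neither contrast.

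**Figure D3:**
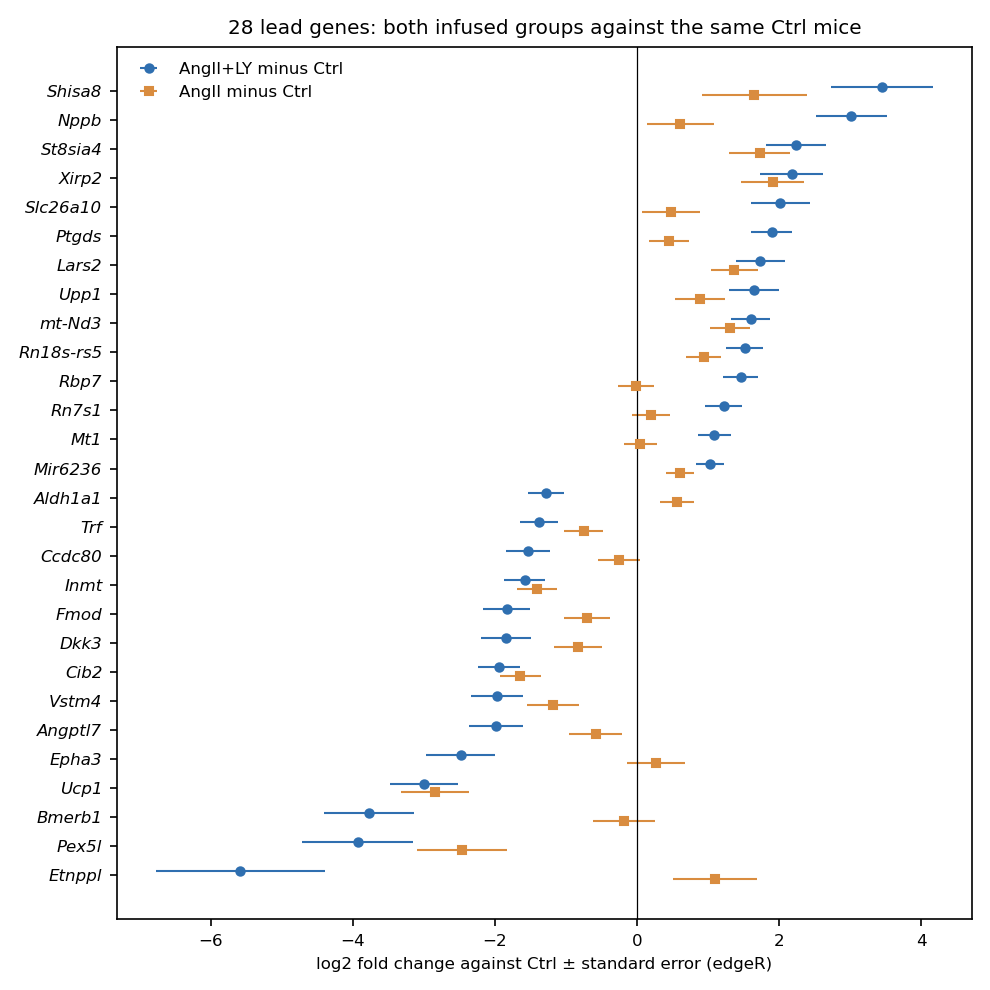
Log2 fold change against Ctrl with its standard error (edgeR) for 14 higher and 14 lower leading genes, in AngII+LY (circles) and in AngII (squares), both against the same 4 Ctrl mice. The 2 symbols lie close together for Ucp1 (-3.0 and -2.84), Cib2 (-1.94 and -1.64) and Xirp2 (2.18 and 1.91) and far apart for Etnppl (-5.58 and 1.10), Bmerb1 (-3.77 and -0.18) and Epha3 (-2.48 and 0.27).

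The gene lists that follow are read against all 19145 genes, whose median log2 fold change was -0.02. A list member counted as higher or lower had an unadjusted p under 0.05, where the shares over all genes were 6.41% higher and 7.39% lower. Members without overlap were counted at any p, where the shares over all genes were 3.27% higher and 4.89% lower. No list member passed edgeR's adjusted test, and DESeq2's calls are given where they are counted. A covariate for the summed cardiomyocyte share of each library, chosen after the data were seen, left 937 genes higher and 988 lower at that p over all genes, and its counts are given beside each list where a count above 3 moved by more than 1.5 times. All 13 mitochondrially encoded protein genes were higher at an unadjusted p under 0.05, DESeq2 called 12, 12 of them did not overlap, and their median log2 fold change was 1.52 (1.70 in AngII). For mt-Nd3, a subunit of complex I, counts were 2279, 2679, 2487 and 3094 in Ctrl and 11197, 6482, 7187 and 7070 in AngII+LY. In LY its counts were 4961 and 5362, above all Ctrl values. For mt-Co3, a subunit of cytochrome oxidase, they were 2939 to 4351 in Ctrl, 6508 to 15226 in AngII+LY and 5899 to 16892 in AngII. Of the 10 mitochondrial rRNAs and tRNAs tested, 9 were higher at an unadjusted p under 0.05, with a median of 1.59 (2.12 in AngII). The ribosomal RNA mt-Rnr1 was at 33591 to 48070 in Ctrl and 92364 to 165804 in AngII+LY.

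The nuclear genes of the respiratory chain and ATP synthase had a positive median in AngII+LY and a negative one in AngII. Of 74 tested, 73 had a positive fold change, 55 an unadjusted p under 0.05 and 14 a call by DESeq2, and 19 did not overlap between the groups. Their median was 0.73 in AngII+LY and -0.28 in AngII. Atp5f1e, a subunit of ATP synthase, was at 23774, 39980, 32954 and 27810 in Ctrl, at 54838, 49721, 59967 and 59790 in AngII+LY, and at 31342, 18457, 31513 and 21885 in AngII. Ndufc2, a subunit of complex I, was at 9447 to 14835 in Ctrl and 15391 to 30909 in AngII+LY. Fatty acid oxidation and ketone use had 10 of 31 genes higher and 2 lower at an unadjusted p under 0.05, with a median of 0.56. Bdh1, which interconverts ketone bodies, was at 316, 1328, 1197 and 843 in Ctrl and at 2212, 2333, 4590 and 4678 in AngII+LY (log2 fold change 1.91, SE 0.43). Cd36, the fatty acid transporter, was at 6391 to 23195 in Ctrl and 16257 to 50799 in AngII+LY, with overlap. Glycolysis and hypoxia response had a median of 0.34, with 4 of 28 genes higher and 1 lower. Under a correction for GC content 8 of the 28 were higher and 1 lower, with a median of 0.42.

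The cardiomyocyte list moved with these genes. Of its 25 markers, 14 were higher at an unadjusted p under 0.05 and none lower (2 higher under the covariate built from them), with a median log2 fold change of 1.09 in AngII+LY and -0.28 in AngII. Myl2, the ventricular myosin light chain, was at 77929, 145165, 162861 and 101779 in Ctrl and at 285047, 197160, 303352 and 255115 in AngII+LY. Tnnc1, cardiac troponin C, was at 39422 to 111838 in Ctrl and 132640 to 217418 in AngII+LY. Myh7, the slow myosin heavy chain, was at 184, 1397, 1113 and 555 in Ctrl and at 4829, 1106, 1420 and 22421 in AngII+LY, and 1 library thus carried most of its difference. Nppa, the atrial natriuretic peptide, ranged from 1242 to 21710 in Ctrl and from 2534 to 141584 in AngII+LY. With the cardiomyocyte share as a covariate, 18 of the 74 respiratory chain genes were higher in place of 55, with a median of 0.33. Fatty acid oxidation had 2 of 31 higher and none lower with a median of -0.03, and glycolysis had 2 of 28 higher and 1 lower with a median of -0.01. The voltage-gated and pacemaker channels, which heart muscle expresses, had 4 of 26 genes higher and none lower with a median of 0.49, which under the covariate became 1 higher and 2 lower with a median of -0.19. Kcne1, a potassium channel subunit, was highest in AngII+LY 4, at 3626.

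**Figure D4:**
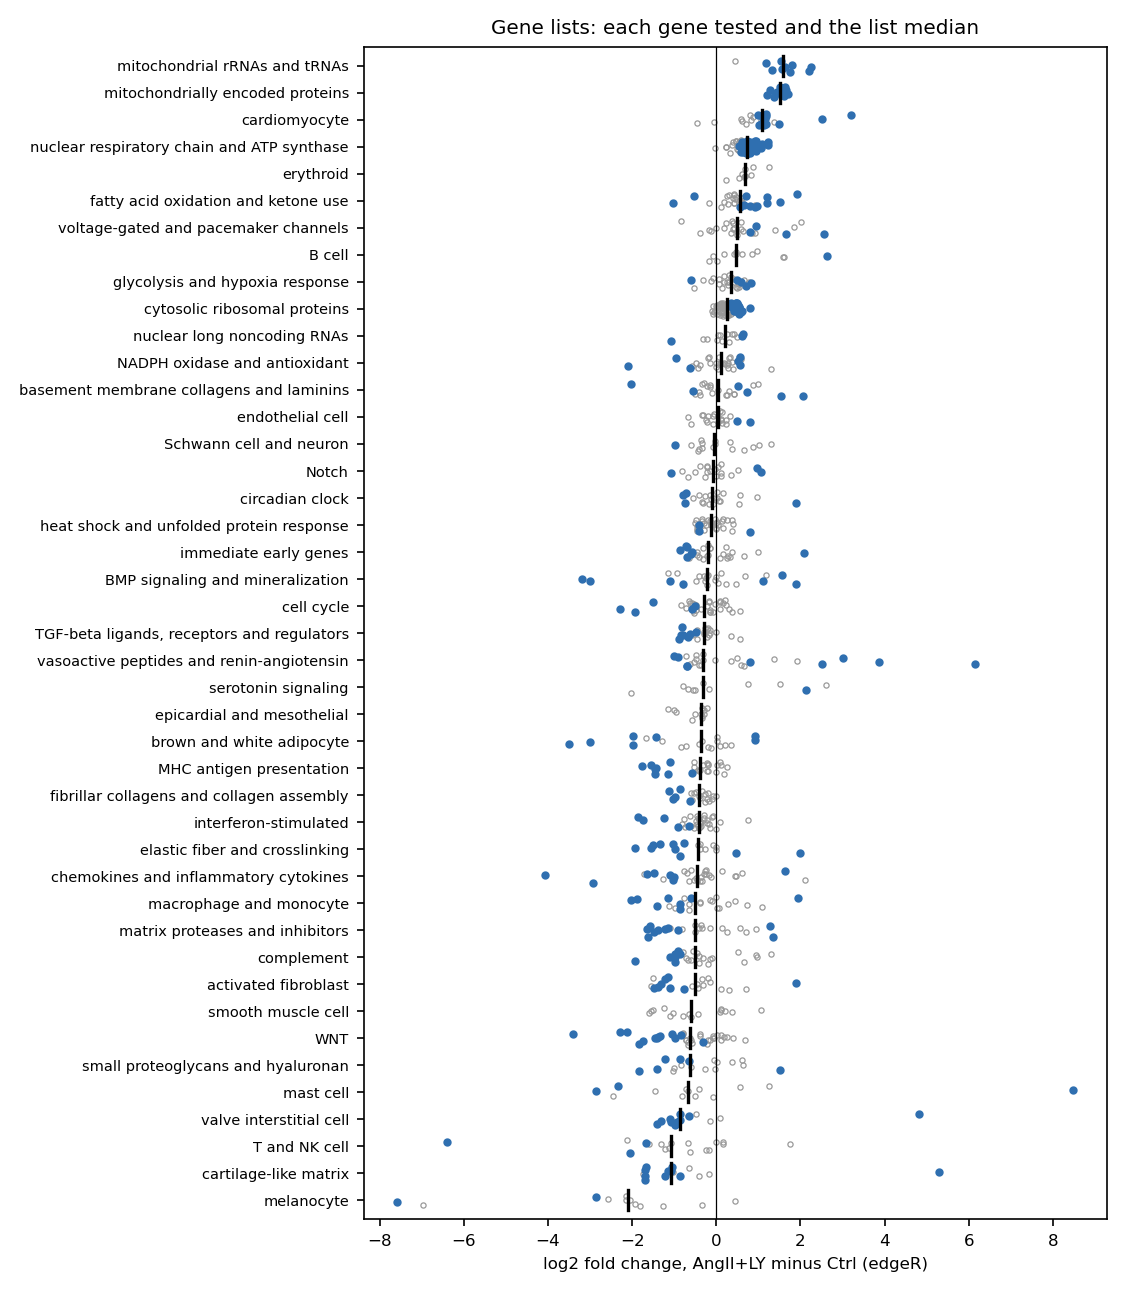
Log2 fold change of AngII+LY minus Ctrl (edgeR) for each gene tested in the gene lists with at least 10 genes tested, ordered by the list median, which is the vertical bar; filled points had an unadjusted p under 0.05 and open points did not. The mitochondrial, cardiomyocyte and respiratory chain lists stand at the top with medians from 0.73 to 1.59, and the cartilage-like matrix, T and NK cell and melanocyte lists stand at the bottom with medians from -2.09 to -1.07.

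Most matrix lists had negative medians. All 20 genes of fibrillar collagens and their assembly had a negative fold change, 5 of them at an unadjusted p under 0.05, with a median of -0.40 (-0.23 in AngII), and under the cardiomyocyte covariate 2 were lower at that p, with a median of -0.27. Col1a1, the main chain of type I collagen, was at 32353, 24938, 14924 and 33041 in Ctrl and at 11343, 15015, 17986 and 13481 in AngII+LY, with overlap at Ctrl 3. Col1a2, its partner chain, was at 18182 to 50063 in Ctrl and 15621 to 18715 in AngII+LY. Col3a1, type III collagen, had a log2 fold change of -0.48 with an adjusted p of 0.487 and overlapped. Col12a1, a collagen of fibril surfaces, was at 1031 to 2122 in Ctrl and 513 to 939 in AngII+LY, and at 1704 to 2284 in AngII. Elastic fibre genes had 8 of 17 lower and 2 higher, with a median of -0.44, and under the covariate 2 were lower and 1 higher, with a median of -0.29. Fbln1, fibulin 1, was at 29580, 29675, 15925 and 28656 in Ctrl and at 8576, 8442, 10166 and 13486 in AngII+LY, and Mfap2, a microfibril protein, was at 2635 to 5784 against 806 to 1712.

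Cartilage-like matrix genes, which valves share with cartilage, had 9 of 15 lower and 1 higher at an unadjusted p under 0.05, with a median of -1.08 (-0.48 in AngII). Under the covariate 3 were lower and 1 higher, with a median of -0.84. Col11a2, a minor fibrillar chain, was at 2168 to 3225 in Ctrl and 402 to 1213 in AngII+LY. Comp, a matrix protein of load-bearing tissue, was at 6889 to 14086 in Ctrl and 3104 to 7296 in AngII+LY, and Sox9, the chondrogenic transcription factor, at 1711 to 4427 against 1264 to 2148. Small proteoglycans and hyaluronan genes had 5 of 18 lower and 1 higher, with a median of -0.63 in AngII+LY and 0.23 in AngII, and without Ctrl 1 the first of these was -0.15. Under the covariate 3 were lower and 2 higher, with a median of -0.23. Prelp, a proteoglycan that anchors basement membrane, was at 70325, 45438, 46429 and 85371 in Ctrl and at 29331, 23774, 25008 and 15629 in AngII+LY. Dcn, decorin, was at 214717 to 441696 in Ctrl, 114781 to 220313 in AngII+LY and 324773 to 393796 in AngII.

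Basement membrane genes were split, with 4 of 23 higher and 2 lower and a median of 0.05. The chains Col4a1 and Col4a2, which share a promoter region, were at 15753 to 24624 and 8127 to 15518 in AngII+LY against 11942 to 19508 and 4977 to 10742 in Ctrl. Matrix proteases and inhibitors had 8 of 23 lower and 2 higher with a median of -0.50, and under the covariate 3 lower and 3 higher with a median of -0.26. Mmp2, gelatinase A, was at 10159, 7010, 7485 and 13171 in Ctrl and at 2947, 3157, 3657 and 2433 in AngII+LY, and Timp2, its inhibitor, was at 42674 to 58444 against 25146 to 31382. Timp1, an inhibitor induced in injured tissue, went the other way, at 1805 to 3965 in Ctrl, 3277 to 12829 in AngII+LY and 3644 to 8878 in AngII.

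The 14 valve interstitial cell markers had 9 lower and 1 higher at an unadjusted p under 0.05, with a median of -0.86 in AngII+LY and -0.05 in AngII. Pdgfra, a receptor that marks fibroblasts, was at 4106, 4046, 5655 and 6510 in Ctrl, at 3750, 1429, 1189 and 1850 in AngII+LY, and at 4743, 4627, 3302 and 3180 in AngII. Postn, periostin, was at 25775 to 89796 in Ctrl and 12745 to 41131 in AngII+LY. Vim and Thy1 had log2 fold changes of -0.16 and 0.09, so the markers did not shift together. The higher marker was Tnmd, tenomodulin, at 85.1, 0, 0 and 283 in AngII+LY against 13.9, 0, 0 and 0 in Ctrl. With the cardiomyocyte covariate 4 were lower and none higher, with a median of -0.39. Genes of activated fibroblasts had 7 of 20 lower and 1 higher, with a median of -0.51, which was -0.17 without Ctrl 1, and under the covariate 4 were lower and 2 higher, with a median of -0.35. Thbs1, thrombospondin 1, an activator of latent TGF-beta, was at 20709 to 56623 in Ctrl and 8343 to 15267 in AngII+LY, and Fn1, fibronectin, at 9497 to 20734 against 7353 to 8749.

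Within TGF-beta signaling, 7 of 22 genes were lower at an unadjusted p under 0.05 and none higher, with a median of -0.29, which was -0.49 without AngII+LY 2, and under the covariate 4 were lower, with a median of -0.19. Of the ligands, Tgfb3 was at 4201 to 7067 in Ctrl and 2584 to 3976 in AngII+LY, whereas Tgfb1 (log2 fold change -0.22, adjusted p 0.761) and Tgfb2 (0.56, adjusted p 0.530) overlapped. Of the receptors, Tgfbr2 was at 11586 to 15446 in Ctrl and 5942 to 11978 in AngII+LY, and Tgfbr3, the accessory receptor betaglycan, at 3306 to 4296 against 1630 to 2829. Acta2, smooth muscle actin and a mark of myofibroblasts, was at 284730, 39775, 5386 and 7455 in Ctrl and at 7060, 52820, 7587 and 47768 in AngII+LY. Its log2 fold change was -1.55 with Ctrl 1 and 0.72 without that library.

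WNT genes had 13 of 37 lower and none higher, with a median of -0.63 (-0.32 in AngII). In 10 of the 37, at any p, all AngII+LY values lay below all Ctrl values (4.89% of all genes). Under the cardiomyocyte covariate 9 WNT genes were lower and 1 higher, with a median of -0.30. DESeq2 called 7 WNT genes lower. The secreted inhibitor Sfrp2 was at 6067, 3511, 1875 and 3800 in Ctrl and at 698, 1121, 1217 and 471 in AngII+LY. Sfrp1, of the same family, was at 1447 to 4389 in Ctrl, 756 to 1830 in AngII+LY and 1879 to 3696 in AngII. Lgr5, a receptor that amplifies WNT signals, was at 232, 151, 174 and 461 in Ctrl and at 0, 7.10, 0 and 74.7 in AngII+LY. Notch genes were close to the background, with 2 of 20 higher and 1 lower; the ligand Jag2 was at 911 to 1658 in Ctrl and 1646 to 3426 in AngII+LY, and the receptor Notch2 at 1360 to 2146 against 553 to 1376. In the BMP and mineralization list, 3 of 26 genes were higher and 4 lower, and under the covariate 4 were higher and none lower. Spp1, osteopontin, was at 492, 1444, 177 and 1100 in Ctrl, at 2414, 3333, 5117 and 1174 in AngII+LY, and at 599, 4602, 6311 and 13364 in AngII (log2 fold change in AngII+LY 1.89, SE 0.74, adjusted p 0.278). Bmp2, an osteogenic ligand, was at 1212 to 2182 in Ctrl and 1986 to 9466 in AngII+LY. Runx2, the osteoblast transcription factor, was at 23.3 to 43.4 in Ctrl, 15.4 to 56.5 in AngII+LY and 67.2 to 139 in AngII.

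Several genes of the drug's own pathway, such as Htr2b and Tph1, had few counts and varied between libraries. Htr2b, the receptor that LY272015 blocks, was at 16.5, 51.7, 36.7 and 34.5 in Ctrl, at 16.5, 28.4, 86.4 and 97.7 in AngII+LY, and at 88.9, 3.41, 28.8 and 0 in AngII. No difference between AngII+LY and Ctrl was detected at these counts (log2 fold change 0.75, SE 0.86). Htr2a, the related receptor, was at 348, 187, 417 and 756 in Ctrl and at 363, 421, 66.2 and 149 in AngII+LY. Slc6a4, the serotonin transporter, was at 325, 66.7, 89.7 and 110 in Ctrl, at 461, 98.3, 615 and 516 in AngII+LY, and at 363, 218, 169 and 2918 in AngII, with a log2 fold change of 1.51 in AngII+LY (SE 0.87, adjusted p 0.465). The LY libraries, without AngII, held Slc6a4 at 908 and 339, above all Ctrl values. Maoa, which breaks serotonin down, was at 851 to 1450 in Ctrl, 552 to 1147 in AngII+LY and 1328 to 2379 in AngII. Tph1, the enzyme of serotonin synthesis outside the brain, was at 15.6 to 46.7 in Ctrl and at 63.2, 3.55, 0 and 7.66 in AngII+LY. In AngII it was at 0 in each library. Of the 11 serotonin genes tested, 1 was higher at an unadjusted p under 0.05: Ddc, an amino acid decarboxylase, at 306, 93.5, 43.2 and 1523 against 98 to 135 in Ctrl.

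On the side of AngII, Agtr1a, its main receptor in mice, was at 195, 397, 385 and 224 in Ctrl and at 422, 362, 500 and 770 in AngII+LY, with AngII mice at 418 to 490 (log2 fold change in AngII+LY 0.79, SE 0.30, adjusted p 0.275). Agtr1b was below the count minimum. Ace, the converting enzyme, was lower at 3061 to 3832 against 4981 to 7810, and Npr2, a natriuretic peptide receptor, at 2481 to 3612 against 4414 to 5355. Edn3, endothelin 3, was at 5.21, 0, 0 and 8.61 in Ctrl, at 60.4, 30.8, 40.3 and 92.0 in AngII+LY and at 55.8, 23.2, 189 and 26.5 in AngII. The LY libraries, from mice without AngII, held Edn3 at 96.7 and 15.8, also above all Ctrl values. Ren1, renin, was at 0, 642, 0 and 2368 in AngII+LY, so 2 libraries carried it. Over the whole vasoactive list, 5 of 25 genes were higher and 4 lower, with a median of -0.31, which was 0.12 without Ctrl 2, and under the covariate 3 were higher and 2 lower, with a median of -0.05.

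Fat genes did not follow their summed share. The adipocyte list took 0.181 to 0.230% of counts in Ctrl, 0.203 to 0.248% in AngII+LY and 0.0885 to 0.167% in AngII, yet 5 of its 20 genes were lower and 2 higher at an unadjusted p under 0.05 in AngII+LY. Cidec and Plin1, coats of the lipid droplet, were at 1094 to 2773 and 340 to 903 in Ctrl, and at 170 to 846 and 30.8 to 218 in AngII+LY. Cox8b, a cytochrome oxidase subunit of brown fat and heart, was higher at 48241 to 72386 against 21866 to 42516. The summed share weighs each gene by its counts. In AngII+LY Cox8b averaged 62231, against 482 for Ucp1 and 451 for Cidec, so it counted far more in that share. The share without Cox8b was not computed.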

How the data were processed

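Bulk RNA-seq of aortic valve leaflets was analysed from 14 mice (4 Ctrl, 2 LY, 4 AngII, 4 AngII+LY), grouped by sample title, with 1 library each. Per the labels, the authors trimmed reads of poor quality after a check with FastQC, mapped them to GRCm39 by HISAT2 and counted genes by featureCounts. The authors deposited counts that are whole numbers with unequal totals, although the table is named as normalized. The annotation, strand setting and treatment of multi-mapping reads are not given in the sources used here. No other deposited columns were left unused.

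Genes were matched to GENCODE vM39, and 618 genes (0.0361% of counts) were not found there. Genes whose count averaged 10 or more were tested with edgeR 4.0.16 in R 4.3.3 (TMM, quasi-likelihood F-test with bias-adjusted deviances, which this version offers beside its older default, all 4 groups in 1 fit). A call needed an adjusted p (Benjamini-Hochberg) under 0.05 together with a log2 fold change beyond 0.5 in either direction. Normalized counts are counts divided by the effective library size and multiplied by the mean effective library size. They are not scaled by gene length, so levels are compared between libraries and not between genes. Replicate libraries differed by more than sampling noise (chi-square per degree of freedom 166.5 to 468.4 over pairs of 1 group). Single shares were compared with an exact two-sided permutation test. Scripts were tested on simulated data.

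Named genes were the 15 higher and 15 lower genes with the smallest p among those whose AngII+LY and Ctrl values did not overlap, with a mean of at least 100 in the higher group and no predicted gene models. Of these, 14 in each direction are described, and some genes that the rules name are not reported here. To these were added up to 4 members a direction of each gene list with an unadjusted p under 0.05, and genes of serotonin, AngII, TGF-beta and mineralization biology. Other genes named with values (Pecam1, Vim, Thy1, Postn, Nppa) were members of the lists chosen after their values were seen. The members and the lists were chosen with earlier results of these data known. Alternatives were RLE scaling, DESeq2 1.42.0, limma 3.58.1 (voom with quality weights), the older quasi-likelihood fit, robust estimation, other count filters, only the 2 groups, a replicate block, a GC correction, exclusion of mitochondrial genes, thinning to the smallest library and leaving out each library. A cardiomyocyte covariate was added after the data were seen. Promoters came from RefSeq on GRCm38.p6.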

Additional observations from a re-analysis of the deposited data

Results flagged for a closer look

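In groups of 4, a library is named here when its gap to the nearest other library, as a share of the group's range, exceeded Dixon's critical value. Of 324 groups examined over the named genes and library shares, 33 had such a library, where chance alone gives about 1 in 20. Of these, 10 were in Ctrl 1, 3 in Ctrl 2, 1 in Ctrl 3, 5 in Ctrl 4, 8 in AngII+LY 1, 1 in AngII+LY 2 and 5 in AngII+LY 4.

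Ctrl 1 stood above the other Ctrl libraries for 9 genes and 1 list share. Its normalized counts were 284730 for Acta2 (others 5386 to 39775), 12039 for Sost (52.4 to 766), 6026 for Nox4 (294 to 617), 5544 for Col4a6 (527 to 1340), 5784 for Mfap2 (2635 to 3166), 903 for Plin1 (340 to 410), 440 for Bmpr1b (1.44 to 68.3), 325 for Slc6a4 (66.7 to 110) and 13.9 for Tnmd (0 in the others). Its melanocyte list share was 0.0491% against 0.00346 to 0.00899%. Ctrl 2 was highest for Mir6236 (3451), Ren1 (41.7, others 0) and the epicardial and mesothelial share (0.0899%). Ctrl 3 was lowest for Fbln1 (15925). Ctrl 4 was highest for Bmerb1 (493), Tgfbr3 (4296) and Col2a1 (7.18), and lowest for Ccnb2 (151) and the adipocyte share (0.181%).

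AngII+LY 1, the library with the largest mitochondrial share of its group, was highest for mt-Nd3 (11197), mt-Rnr1 (165804), Hmox1 (724), Mrgprb2 (159), Tph1 (63.2) and the B cell share (0.0350%), and lowest for Rn7s1 (352) and Maoa (552). AngII+LY 2 was highest for Slc26a10 (10033). AngII+LY 4, the library with the largest cardiomyocyte share, was highest for Fbn2 (963), Inmt (2956), Lgr5 (74.7), Elovl3 (29.7) and the macrophage and monocyte share (0.142%).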

How the results depend on the processing

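The number of genes called was 0 in the main fit, 343 with DESeq2, 10 with limma, 13 with no filter on low counts, 1 with the replicate block and GC correction together, 3 after thinning to the smallest library, and 0 to 5 when 1 library was left out. It stayed at 0 under RLE scaling, the older fit (smallest adjusted p 0.0857), robust estimation, a mean count of at least 100, only the 2 groups, the replicate block, GC correction, no mitochondrial genes and the covariate. Genes at an unadjusted p under 0.05 numbered 885 to 1592 higher and 1035 to 1519 lower with 1 library left out. They numbered 1405 higher and 1245 lower under RLE scaling, 1567 and 1320 under GC correction, and 1284 and 1205 with DESeq2. Which direction held more genes therefore depended on the processing. The difference in mitochondrial share was 5.98 to 9.33 percentage points, and p was 0.0571 without Ctrl 1 (7.61 points), Ctrl 2 (8.04) or Ctrl 3 (8.11). Replicate numbers did not pair the samples (correlations of deviations -0.128 to 0.0848, own number best in 1 of 4), and with the block 1028 genes were higher and 1311 lower at an unadjusted p under 0.05.

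Of 3214 values of 147 named genes under the alternatives, 3096 kept direction and side, 104 newly passed the test and 14 changed direction, and the cause was not tested. With 1 library left out, log2 fold changes ranged from -4.0 to 0.36 for Sost, -2.0 to 0.72 for Acta2 (both highest without Ctrl 1), -0.26 to 0.02 for Maoa (0.01 without Ctrl 4) and -0.49 to 0.25 for Runx2 (0.10 without Ctrl 1, 0.05 without Ctrl 4, 0.09 without AngII+LY 1). Runx2 was also at 0.02 (RLE), 0.06 (GC), 0.01 (no mitochondrial genes) and 0.03 (covariate). With the covariate Maoa was at 0.05 and Htr2b at -0.37. Of 988 list medians, 35 moved by at least the SD of the list's median level between mice, pooled over Ctrl and AngII+LY. Median log2 fold changes were 0.142 in the fifth of genes lowest in GC and -0.109 in the highest (0.665 and -0.5 for AngII against Ctrl). Serotonin genes such as Htr2b and Tph1 had few counts, with 4 mice a group. No difference between AngII+LY and Ctrl was detected in those 2 genes, which does not show that there was none.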

Other observations

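Most immune lists had negative medians in AngII+LY against Ctrl, and the B cell list a positive one (0.47). Over all genes the median was -0.02, and 7.39% were lower at an unadjusted p under 0.05. In MHC antigen presentation 8 of 25 genes were lower and none higher, with a median of -0.38 in AngII+LY and -0.72 in AngII, and under the cardiomyocyte covariate 1 was lower, with a median of -0.23. Cd74, the invariant chain, was at 74068, 36924, 14594 and 12476 in Ctrl and at 9195, 19222, 12564 and 9123 in AngII+LY, with overlap. H2-DMb1, which loads class II peptides, was at 634 to 2772 in Ctrl and 282 to 588 in AngII+LY. Complement had 7 of 24 genes lower (median -0.51, and 7 lower and 1 higher under the covariate), among them C4b at 7583 to 19573 against 1873 to 5161. Chemokines and inflammatory cytokines had 7 of 32 lower and 1 higher (median -0.47). Csf1, the growth factor of macrophages, was at 8599 to 10089 in Ctrl, 3277 to 5440 in AngII+LY and 2387 to 7457 in AngII, and Il33, an alarmin of stromal cells, was at 2325 to 4473 in Ctrl, 1129 to 1870 in AngII+LY and 3425 to 8045 in AngII. Il11, a profibrotic cytokine, was the higher one, at 30 to 110 in Ctrl, 97.7 to 259 in AngII+LY and 126 to 198 in AngII. Interferon-stimulated genes had 5 of 35 lower (median -0.41). Macrophage and monocyte markers had 7 of 24 lower and 1 higher (median -0.50), which under the covariate became 2 lower and none higher (median -0.13), and their summed share was 0.0607 to 0.199% in Ctrl and 0.0547 to 0.142% in AngII+LY. T and NK cell markers had 3 of 17 lower (median -1.07, -0.31 without Ctrl 1), neutrophil markers 1 of 8 lower, mast cell markers 2 of 13 lower and 1 higher, and B cell markers 1 of 13 higher.

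Cytosolic ribosomal protein genes had 18 of 76 higher and none lower, with a median of 0.26 in AngII+LY and -0.29 in AngII. Under GC correction 37 of the 76 were higher, with a median of 0.32, where 1567 of all 19044 genes were higher. In 19 of the 76, at any p, all AngII+LY values lay above all Ctrl values (3.27% of all genes). Rpl38 was at 5075 to 6283 in Ctrl, 7238 to 8102 in AngII+LY and 4529 to 5571 in AngII. In the circadian clock list 1 of 22 genes was higher and 3 lower. Per2, a repressor of the clock, was at 2893, 3145, 3112 and 3013 in Ctrl and at 1887, 1699, 1857 and 1972 in AngII+LY (log2 fold change -0.71, SE 0.16), and Cry2 at 2659 to 3879 against 1385 to 2277. Times of day at collection are not given in the sources used here. Immediate early genes, which respond to handling and dissociation of tissue, had 6 of 27 lower and 1 higher, with Dusp1 at 10566 to 16720 in Ctrl and 5264 to 10169 in AngII+LY. Cell cycle genes had 5 of 34 lower and none higher, with Ccna2, a cyclin of S phase, at 217 to 428 against 79.6 to 189. Heat shock and unfolded protein response genes had 1 of 32 higher and 2 lower, NADPH oxidase and antioxidant genes 3 of 31 higher and 3 lower (none higher and 2 lower under the covariate), and nuclear long noncoding RNAs 2 of 14 higher and 1 lower, with Neat1 at 15670 to 19678 in Ctrl, 23096 to 31056 in AngII+LY and 20897 to 44009 in AngII.

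Endothelial markers had 2 of 22 higher and none lower, with a median of 0.04. Smooth muscle markers had none of 16 at an unadjusted p under 0.05, with a median of -0.61, which was 0.75 without Ctrl 1 and -0.14 under the covariate. Their summed share was 1.39% in Ctrl 1, 0.0958 to 0.366% in the other Ctrl libraries and 0.149 to 0.507% in AngII+LY. Melanocyte markers had 2 of 12 lower with a median of -2.09, which was -0.38 without Ctrl 1 and -0.33, with 1 lower, under the covariate. Schwann cell and neuron markers had 1 of 16 lower (median -0.05, -0.40 without AngII+LY 4), and the erythroid (median 0.67) and epicardial (median -0.36) lists had none at an unadjusted p under 0.05, although 3 of the 12 epicardial genes were lower under the covariate.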
